A study of Mus musculus with 37 samples.

Results

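The cytosolic ribosomal protein genes encode the proteins of the 40S and 60S subunits of the ribosome that translates nuclear mRNAs in the cytoplasm. They were chosen by symbol, as all Rpl and Rps genes with a number, Rplp0, Rplp1, Rplp2 and Rpsa, without the Rps6k kinases and without processed pseudogenes with -ps names. A gene was measured where the array had a probe set annotated with its symbol alone, and this held for 60 genes of 19938 measured in all. Of the 60, 30 are named as proteins of the large subunit, 20 as proteins of the small subunit, 3 as the stalk proteins and 7 as paralogs by name (Rpl3l, Rpl7l1, Rpl10l, Rpl32l, Rpl39l, Rps27l and Rps4l). RefSeq lists 86 mouse symbols of this form, and the other 26, such as Rpl3 and Rps27, had no probe set of their own, 17 of them because their probe sets also carried other symbols.

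RNA of the whole right lung was read on Mouse Gene 1.0 ST, a whole-transcript expression array. Lungs were from the inbred strains A/J, taken daily from E15.5 through E20.5 and on the day of birth (PN0), and C57BL/6J (B6), taken daily from E15.5 through E18.5 and at PN0, with no treatment or engineered allele in either strain. Each of the 12 groups held 3 replicates, each a litter from which the lungs of 3 males were pooled, so that sexes cannot be compared. B6 pups are born about a day earlier than A/J pups, PN0 lungs of B6 were therefore younger after conception than PN0 lungs of A/J, and A/J lungs at E20.5 and PN0 were hours apart. B6 at E18.5 had one more array (2b), which was averaged with array 2. All values are log2 signals, and a difference of 1 is a 2-fold change.

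Most ribosomal proteins are made in equal numbers for each ribosome, and the mRNAs of ribosomal proteins make up a large share of the mRNA of growing cells. Most of these mRNAs begin with a run of pyrimidines at the 5′ end, the 5′ terminal oligopyrimidine (TOP) tract, through which growth signals of the mTOR pathway raise or lower their translation. In the lung, the last days before birth are a time in which proliferation slows and the epithelium differentiates for air breathing. A change of mRNA level does not by itself give the rate of translation, which was not measured.

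Start site sequences are shown for the 6 genes with the largest fall from E15.5 to PN0, for those of the 6 genes at the other end of the order whose start was in the table and could be printed, and for Rplp2 and Rpl27a. They show where the pyrimidine tract was found and where it was not, and both kinds occur among genes that fell and genes that did not. Rplp2, a stalk gene, and Rpl27a, which has the longest run, were added by choice as examples of windows with a run. Each is 30 bases, 5′ to 3′ on the gene's strand, from RefSeq starts on GRCm38.p6, and capitals mark the longest run of C and T in the window searched, counted from a C. Where no such run was found the window begins 10 bases before the annotated start and is in lower case throughout.
Rpl12, chr2:32961702-32961731, plus strand: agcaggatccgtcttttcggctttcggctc
Rps21, chr2:180257369-180257398, plus strand: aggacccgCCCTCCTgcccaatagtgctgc
Rpl7l1, chr17:46782637-46782666, minus strand: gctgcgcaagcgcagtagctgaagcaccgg
Rps12, chr10:23787180-23787209, minus strand: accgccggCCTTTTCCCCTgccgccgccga
Rpl22, chr4:152325716-152325745, plus strand: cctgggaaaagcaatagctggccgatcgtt
Rpl36a, chrX:134585644-134585673, plus strand: cccaggcaccgcctataaacttccgttgcg
Rplp2, chr7:141447639-141447668, plus strand: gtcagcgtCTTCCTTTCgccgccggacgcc
Rpl27a, chr7:109519183-109519212, plus strand: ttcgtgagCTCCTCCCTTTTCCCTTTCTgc
Rps6, chr4:86857347-86857376, minus strand: aagtcgggCCTCTTTTTCgtgacgcctccc
Rps25, chr9:44407684-44407713, plus strand: ccaccgggCTTCCTTTTTTTCCgacatctt
Rps28, chr17:33824543-33824572, minus strand: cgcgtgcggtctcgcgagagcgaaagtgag

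Of the 60 genes, 48 had a start in the RefSeq table. A run of at least 7 C or T bases that opened with C, within 30 bases on either side of the first annotated start and on the gene's strand, was present in 25 of these 48 (52.1%). It was present at 26.5% of all 27025 starts and at 31.9% of 69 starts of mitochondrial ribosomal protein genes. On the opposite strand the same run was present in 20.8% of the 48 and at 8100 of the 27025 starts. Among the genes that were lower at PN0 in both strains, 15 of 26 starts (57.7%) held the run, and among the other members 10 of 22 (45.5%). The longest run among the windows shown was that of Rpl27a, at 20 bases. An annotated start can lie away from the start used in the lung, so the absence of a run says only that these letters are not in the window.

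The question put to the time course was how lung mRNAs change from E15.5, the earliest time, to birth in each strain. On the deposited scale, most cytosolic ribosomal protein genes fell in both strains, most of these by less than 1.5-fold and a few by 2-fold or more. In A/J 42 of the 60 were lower at PN0 than at E15.5, against 25.8% of all 21789 probe sets tested, 1 was higher, against 25.2%, and 17 passed in neither direction. In B6 33 were lower, against 26.6% of all, 2 were higher, against 24.4%, and 25 passed in neither direction. A gene was counted as lower or higher at a Benjamini-Hochberg adjusted p below 0.05 from limma, a linear model fitted to all probe sets. The median log2 difference of the 60 was -0.34 in A/J and -0.23 in B6, while that of all probe sets was -0.04 and 0. With a fold of 1.5 required in addition, 15 were lower in A/J, against 11.8% of all, and 10 in B6, against 13.4%, and none was higher in either strain.

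Both strains were then set side by side. Of the 60 genes 32 were lower in both strains, 10 in A/J and not in B6, 1 in B6 and not in A/J (Rps15a), and 15 passed in neither strain in either direction. Across the 60 genes the A/J and B6 differences, which share no replicates, had a Pearson r of 0.856 and a Spearman rho of 0.845. All genes of a strain were read from the same arrays, so the genes are not independent points. In A/J, 44 of the 60 had all PN0 replicates below all E15.5 replicates, against 28.2% of all probe sets, and in B6 39 did, against 29.6%.

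**Figure D1:**
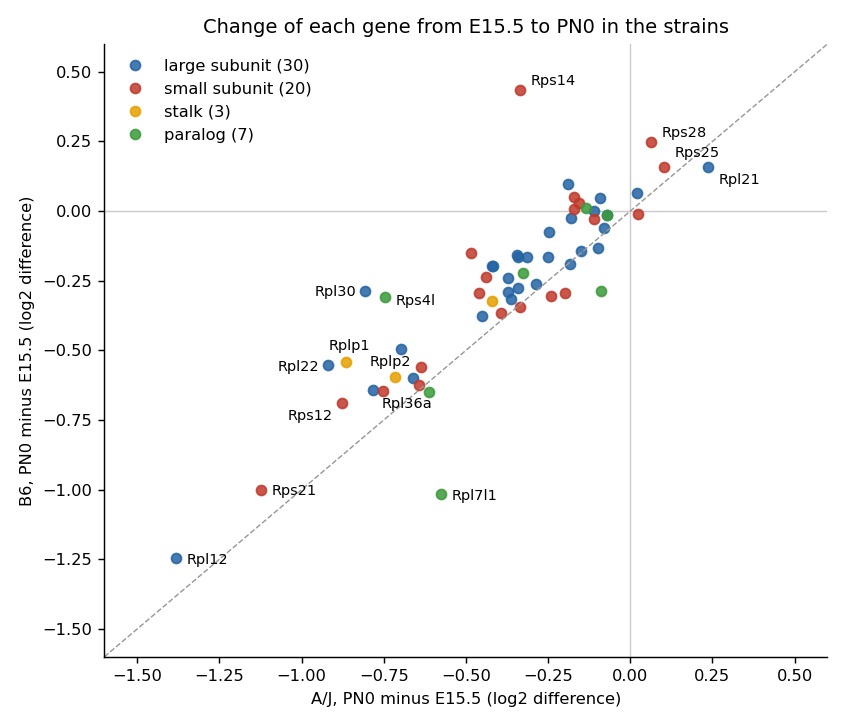
Log2 difference of PN0 minus E15.5, with A/J on the x axis and B6 on the y axis, for each of the 60 genes, coloured by role, with the dashed line at equal change. Most points lie below 0 on both axes, Rpl12 lies lowest on both, and Rps14 is below 0 in A/J and above 0 in B6.

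These falls are measured relative to the other probe sets of an array, and their size depends on the scaling. The 99th percentile of an array's log2 signals averaged 12.32 in A/J at E15.5 and 12.06 at PN0, and in B6 12.30 and 12.06, and 19 of the 60 genes had a mean signal above 12. After quantile normalization, which gives all arrays the same distribution, 29 genes were lower and 3 higher in A/J with a median of -0.17, and 20 were lower and 10 higher in B6 with a median of -0.10. The lower members were then no longer most of the 60 in either strain. Shares of all probe sets after quantile normalization are not given here, so these counts cannot be read against them. In lung homogenate, fewer cells of a type and less RNA per cell cannot be told apart.

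By role, 21 of 30 large subunit genes were lower in A/J and 17 in B6. For each role, the share of all probe sets to set beside the count of lower genes is 25.8% in A/J and 26.6% in B6. Rpl12, whose protein lies at the base of the ribosomal stalk (gene at chr2:32961712-32964045), had the largest fall of all 60. Its log2 signals were 8.72, 8.46 and 8.47 in the A/J replicates at E15.5 and 7.13, 7.24 and 7.13 at PN0. In B6 they were 8.48, 8.31 and 8.11 at E15.5 and 7.15, 6.75 and 7.26 at PN0. Every PN0 replicate lay below every E15.5 replicate, in both strains. In A/J the level was lowest at E20.5, where the log2 difference from E15.5 was -1.75 (adjusted p = 2.66e-12). Rpl12 fell 2.61-fold in A/J (log2 difference -1.38, SE 0.14, adjusted p = 5.48e-10) and 2.37-fold in B6 (-1.25, SE 0.14, adjusted p = 4.72e-09).

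Rpl22, a protein of the large subunit that is not essential for translation in general, had signals of 10.36, 10.32 and 10.35 in A/J at E15.5 and 9.27, 9.54 and 9.46 at PN0. In B6 the signals were 10.14, 10.15 and 10.16 at E15.5 and 9.64, 9.43 and 9.72 at PN0. The groups did not overlap in either strain, and the fall was 0.92 in A/J (log2 difference -0.92, SE 0.07, adjusted p = 4.03e-13) and smaller in B6 (-0.55, SE 0.07, adjusted p = 2.4e-08). Rpl36a, on the X chromosome, fell by 0.78 in A/J (SE 0.07, adjusted p = 9.06e-12) and by 0.64 in B6 (SE 0.07, adjusted p = 6.85e-10). At the other end of the large subunit stood Rpl21 and Rpl29. Rpl21 was the member that was higher in A/J at PN0 (0.24, SE 0.08, adjusted p = 0.0152), with signals of 13.10, 13.15 and 13.09 at E15.5 and 13.39, 13.44 and 13.22 at PN0, and in B6 it differed by 0.16 (adjusted p = 0.113). Rpl21 did not pass in A/J with A/J PN0 replicate 1 left out (0.22, adjusted p = 0.0535), with replicate 2 left out (0.19, adjusted p = 0.0858), or with its probe sets averaged (0.11, adjusted p = 0.108). Rpl29 differed by 0.02 in A/J (adjusted p = 0.887) and 0.06 in B6 (adjusted p = 0.618).

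Of the 20 small subunit genes, 14 were lower in A/J and 10 in B6, where 2 were higher. Rps21 (gene at chr2:180257379-180258444) gave 11.16, 11.17 and 11.12 in A/J at E15.5 and 9.88, 10.16 and 10.04 at PN0. Its B6 signals were 11.02, 11.10 and 10.91 at E15.5 and 10.10, 9.92 and 10.01 at PN0. The fall was 2.18-fold in A/J (-1.12, SE 0.10, adjusted p = 1.65e-11) and 2.0-fold in B6 (-1.0, SE 0.10, adjusted p = 2.17e-10), with no overlap between the groups. Rps12, which was read by 14 probe sets, more than any other member, fell by 0.88 in A/J (SE 0.08, adjusted p = 2.13e-11) and by 0.69 in B6 (SE 0.08, adjusted p = 3.59e-09), and all 14 probe sets were lower in both strains, although several of these hold identical values and only 8 differ from each other. Rpsa, the laminin receptor protein that is also a part of the small subunit, fell by 0.75 in A/J (SE 0.07, adjusted p = 6.96e-11) and by 0.65 in B6 (SE 0.07, adjusted p = 1.83e-09).

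Rps6, whose protein is phosphorylated downstream of mTOR, had close levels at both times. Its signals were 12.97, 13.00 and 12.92 in A/J at E15.5 and 13.04, 13.00 and 12.92 at PN0, and in B6 13.07, 12.98 and 13.06 at E15.5 and 12.99, 13.05 and 13.04 at PN0. The log2 difference was 0.02 in A/J (SE 0.07, adjusted p = 0.829) and -0.01 in B6 (SE 0.07, adjusted p = 0.93), although 4 of its 8 probe sets were lower in A/J, where the dimmest gave -0.17 (adjusted p = 0.049), and after quantile normalization the B6 difference was 0.18 (adjusted p = 0.0463). Rps25 differed by 0.10 in A/J (adjusted p = 0.456) and 0.16 in B6 (adjusted p = 0.237). Rps28 was higher at PN0 in B6 (0.25, SE 0.08, adjusted p = 0.00717), where all 7 of its probe sets, 6 of them with distinct values, were higher, and differed by 0.06 in A/J (adjusted p = 0.532). Without B6 E15.5 replicate 3, the Rps28 difference in B6 was 0.18 (adjusted p = 0.0702).

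Rps14, a small subunit protein, was the one member that passed the test in opposite directions. In A/J its signals were 11.64, 11.68 and 11.70 at E15.5 and 11.25, 11.35 and 11.41 at PN0. In B6 they were 11.53, 11.59 and 11.47 at E15.5 and 11.96, 11.99 and 11.94 at PN0. All A/J litters of PN0 lay below all those of E15.5, and all B6 litters of PN0 lay above all those of E15.5. The fall in A/J was 0.34 (log2 difference -0.34, SE 0.07, adjusted p = 0.000202) and the rise in B6 was 0.43 (SE 0.07, adjusted p = 5.99e-06), and a second Rps14 probe set gave -0.43 and 0.46. After quantile normalization the A/J difference was -0.17 (adjusted p = 0.061).

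All 3 stalk genes were lower at PN0 in both strains. Their proteins form the acidic stalk of the large subunit, where Rplp0 anchors Rplp1 and Rplp2, and the stalk recruits the elongation factors. Rplp1 had signals of 12.94, 12.77 and 12.96 in A/J at E15.5 and 11.92, 12.02 and 12.14 at PN0, and 12.65, 12.71 and 12.68 in B6 at E15.5 and 12.31, 12.05 and 12.05 at PN0. It fell by 0.86 in A/J (SE 0.07, adjusted p = 1.65e-11) and by 0.54 in B6 (SE 0.07, adjusted p = 2.17e-07). Rplp2 fell by 0.72 in A/J (SE 0.10, adjusted p = 1.57e-07) and by 0.60 in B6 (SE 0.10, adjusted p = 3.6e-06). Rplp0, a common reference gene for RT-PCR, fell less, by 0.42 in A/J (SE 0.07, adjusted p = 2.1e-06) and by 0.32 in B6 (SE 0.07, adjusted p = 9.79e-05), where it did not pass after quantile normalization (-0.11, adjusted p = 0.154).

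Among the 7 paralogs by name, 4 were lower in A/J, against 25.8% of all probe sets, and 3 in B6, against 26.6%, and with 7 genes these counts are small. Rpl7l1, a paralog of Rpl7, had signals of 10.22, 10.02 and 10.03 in A/J at E15.5 and 9.52, 9.53 and 9.49 at PN0, and of 10.02, 10.03 and 10.03 in B6 at E15.5 and 9.33, 8.80 and 8.90 at PN0. It fell by 0.58 in A/J (SE 0.09, adjusted p = 2.63e-06) and by 1.02 in B6 (SE 0.09, adjusted p = 4.24e-11). Rpl7 itself fell by 0.18 in A/J (adjusted p = 0.0451) and by 0.19 in B6 (adjusted p = 0.0377), and after quantile normalization its differences were 0.015 (adjusted p = 0.883) and -0.02 (adjusted p = 0.841). The Rpl7 call was also lost in 4 of 6 fits that left out an A/J replicate and in 5 of 6 that left out a B6 replicate. Rpl32l fell by 0.61 in A/J (SE 0.14, adjusted p = 0.000505) and by 0.65 in B6 (SE 0.14, adjusted p = 0.000258), and Rps27l fell by 0.33 (SE 0.09, adjusted p = 0.00221) and by 0.22 (SE 0.09, adjusted p = 0.0344). The Rps27l call in B6 was lost without B6 E15.5 replicate 1 (-0.18, adjusted p = 0.144), B6 E15.5 replicate 2 (adjusted p = 0.0961) or B6 PN0 replicate 3 (adjusted p = 0.124), and after quantile normalization (adjusted p = 0.0512). Rps4l, which RefSeq classes as a transcribed pseudogene, fell by 0.75 in A/J (SE 0.15, adjusted p = 0.000111) and differed by -0.31 in B6 (adjusted p = 0.0954). Its X-linked partner Rps4x fell by 0.17 in A/J (adjusted p = 0.0234), a call lost after quantile normalization (-0.026, adjusted p = 0.762) and without A/J E15.5 replicate 1, A/J PN0 replicate 1 or A/J PN0 replicate 3, and differed by 0.05 in B6 (adjusted p = 0.549).

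The other paralogs, Rpl3l, Rpl10l and Rpl39l, are known from striated muscle or testis and were dim here, with mean log2 signals of 4.96, 5.89 and 3.83. None of them passed in either strain, and their differences lay between -0.29 and 0.01. The partner of Rpl10l, the X-linked Rpl10, gave 13.59, 13.55 and 13.59 in A/J at E15.5 and 13.42, 13.51 and 13.59 at PN0, and differed by -0.07 in A/J (adjusted p = 0.346) and -0.01 in B6 (adjusted p = 0.877).

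Ribosomal protein genes have many processed copies in the genome, and 39 of the 60 were read by several probe sets, 216 probe sets in all. Signals of a gene and of near-identical copies cannot be told apart. Of the 216 probe sets 165 were lower and 2 higher at PN0 in A/J, and 133 were lower and 11 higher in B6. Of all probe sets 25.8% were lower and 25.2% higher in A/J, and 26.6% and 24.4% in B6. Probe sets that repeat the values of another probe set of the same gene are included, and counted once they left 204 probe sets, of which 154 were lower and 2 higher in A/J and 124 lower and 10 higher in B6. No gene had probe sets that passed in both directions within a strain. The probe sets differed most for Rps25, Rpsa, Rps2 and Rps28. The 6 probe sets of Rps25 ranged from -0.32 to 0.10 in A/J, where 3 were lower, and from -0.07 to 0.16 in B6, where none passed. The 5 of Rpsa were lower in both strains, by -1.11 to -0.75 in A/J and -0.93 to -0.65 in B6, the 3 of Rps2 were lower by -0.49 to -0.24 and -0.62 to -0.29, and the 7 of Rps28 ranged from -0.04 to 0.17 in A/J and from 0.17 to 0.39 in B6.

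On the deposited scale the fall was gradual. The mean signal of the 60 genes was 10.83 ± 0.017 (SD, n = 3) in A/J at E15.5, stood at 10.81, 10.74, 10.65, 10.57 and 10.53 on the days that followed, and reached 10.45 ± 0.057 (SD, n = 3) at PN0. In B6 it was 10.81 ± 0.015 (SD, n = 3) at E15.5, then 10.76, 10.63 and 10.56 on the days that followed, and 10.55 ± 0.018 (SD, n = 3) at PN0. No replicate of either strain at E18.5 or later reached the lowest E15.5 replicate of its strain, which was 10.82 in A/J and 10.79 in B6. In A/J 23 members had their highest mean at E15.5 and 41 their lowest at PN0, and in B6 32 and 29 did. The 99th percentile of the array signals fell over the same times. It averaged 12.32, 12.31, 12.23, 12.18, 12.08, 12.07 and 12.06 in A/J, and 12.30, 12.27, 12.16, 12.07 and 12.06 in B6. The part of scaling in the course was not tested.

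**Figure D2:**
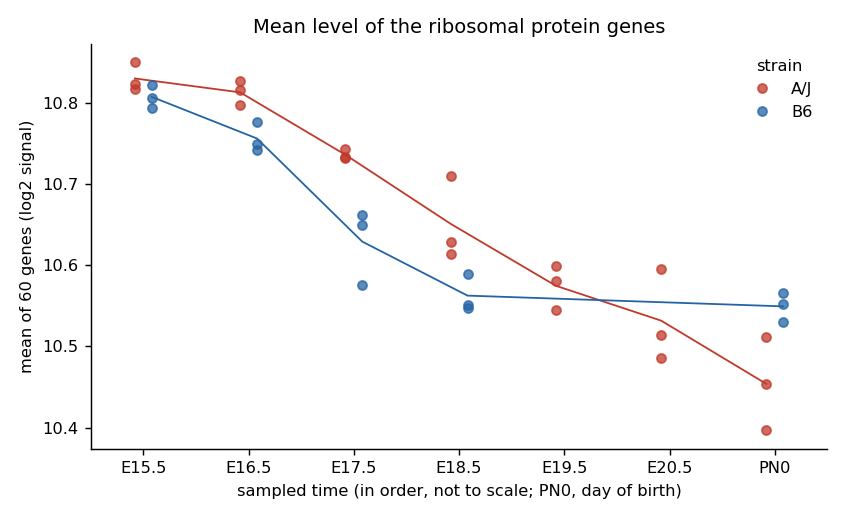
Mean log2 signal of the 60 genes on the deposited scale (y axis) at each sampled time (x axis, in order), in A/J and B6. Each point is a replicate and the lines join group means, which run from 10.83 to 10.45 in A/J and from 10.81 to 10.55 in B6.

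Counted against E15.5, A/J lungs of E16.5 had 2 lower members (1.97% of all probe sets were lower and 4.69% higher) and none that was higher by limma. Those of E17.5 had 12 lower (20.6%) and 1 higher (17%), those of E18.5 had 25 lower (4021 of 21789 probe sets) and 3 higher (31.3%), those of E19.5 had 34 lower (25.3%) and 3 higher (24.4%), and those of E20.5 had 35 lower (26.1%) and 1 higher (25.3%). In B6, 3 members were lower and none higher by limma after a day (7.52% and 6.84% of all), 27 lower and none higher by limma at E17.5 (21.9% and 18.2%), and 34 lower and 2 higher at E18.5 (24% and 22.1%). At E16.5 and, in A/J, at E17.5, the share of lower members was close to that of all probe sets, while the share of higher members was below it. In the comparisons with no higher member, none was higher at an unadjusted p below 0.05 either. At most 3 members were higher at any time, among them the small subunit gene Rps28, which in A/J was higher at E18.5 (0.42, adjusted p = 2.34e-05), E19.5 (0.25, adjusted p = 0.00592) and E20.5 (0.21, adjusted p = 0.0194). In A/J at E18.5 the median difference of all probe sets from E15.5 was also above 0, at 0.07.

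**Figure D3:**
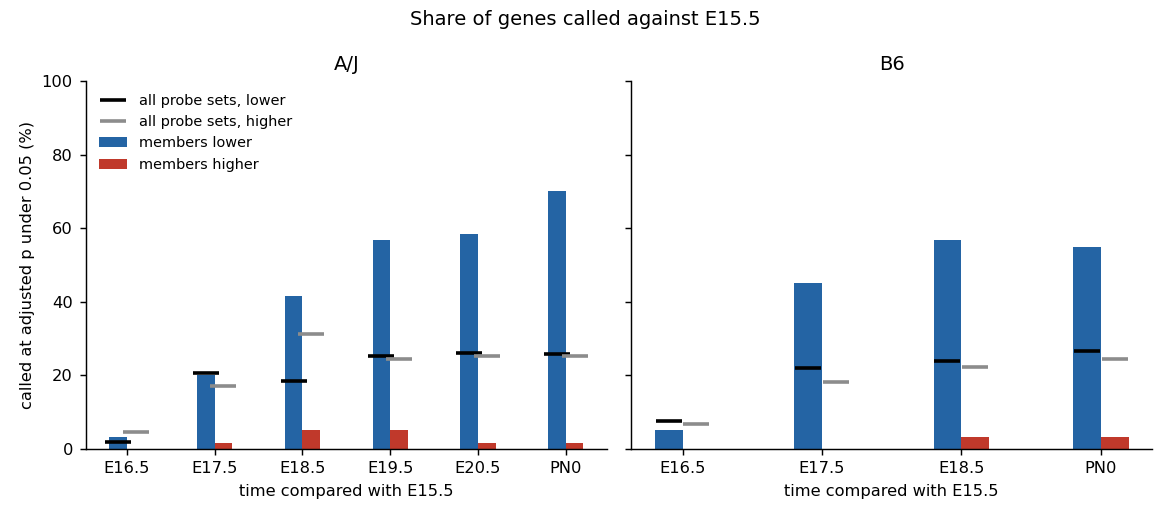
Percent of the 60 genes (bars) and of all 21789 probe sets (horizontal marks) that were lower or higher than at E15.5 at an adjusted p below 0.05, by time, in A/J (left) and B6 (right). The share of lower members reaches 42 of 60 at PN0 in A/J and 34 of 60 at E18.5 in B6, above the marks of all probe sets at these times, and the share of higher members stays below them.

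Over the 10 steps between neighbouring times 73 calls were made among the members, to be read beside the share of all probe sets at each step. For the step from E15.5 to E16.5, counts and shares are those given above. From E15.5 to E16.5 Rpl12 was already lower, by -0.56 in A/J (SE 0.14, adjusted p = 0.0115) and -0.74 in B6 (SE 0.14, adjusted p = 0.000346), and so was Rpl30, a large subunit protein, by -0.24 (adjusted p = 0.0494) and -0.28 (adjusted p = 0.0107). From E16.5 to E17.5, 6 members were lower in A/J, against 15.9% of all probe sets, and 7 in B6, against 9.16%, and none was higher by limma, against 12.7% and 6.49%. From E17.5 to E18.5, 12 were lower in A/J, against 4.56% of all, and 12 in B6, against 11%, while 2 and 3 were higher, against 26.8% and 12.7%. Rps21 had its main fall in this step, by -0.66 in A/J (SE 0.10, adjusted p = 1.46e-05) and -0.52 in B6 (SE 0.10, adjusted p = 0.000179), as did Rps12, by -0.49 (adjusted p = 2.84e-05) and -0.40 (adjusted p = 0.000262). In the same step Rps28 and Rps29, both small proteins of the 40S subunit, were higher in both strains, Rps28 by 0.39 in A/J (adjusted p = 0.000348) and 0.32 in B6 (adjusted p = 0.00222), and Rps29 by 0.28 (adjusted p = 0.0147) and 0.33 (adjusted p = 0.00523). The median difference of all probe sets in this step was 0.12 in A/J and -0.03 in B6, so the A/J arrays as a whole also moved up.

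Later steps held 9 lower members from E18.5 to E19.5 in A/J, and 1 higher one (Rpl34, 0.41), against 23.7% and 4.56% of all probe sets, none from E19.5 to E20.5 in either direction, and 8 lower and 2 higher between E20.5 and PN0, against 8.09% and 12%. Between E19.5 and E20.5, where no member passed limma's adjusted p and 3 were lower and none higher at an unadjusted p below 0.05, 0.509% of all probe sets were lower and 0.197% higher. Across birth in A/J Rpl22 fell by 0.38 (adjusted p = 0.000131), and Rpl7l1 rose by 0.28 (adjusted p = 0.03) and Rps27l by 0.33 (adjusted p = 0.00652). From E18.5 to PN0 in B6, 4 were lower, against 14.4%, and 2 higher, against 12.5%. There Rpl7l1 fell by 0.44 (adjusted p = 0.000452) and Rpl30 rose by 0.45 (adjusted p = 3.85e-05).

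Over the whole course, 2 members in A/J (Rpl12 and Rps21) passed limma's F test at an adjusted p below 0.01 with a 2-fold range of group means, against 17.8% of all probe sets, and 2 in B6 (Rpl12 and Rpl7l1), against 14.4%. Rps21 in B6, with group means from 11.01 at E15.5 to 10.01 at PN0, lay on the 2-fold limit itself and was not counted. Without B6 PN0 replicate 2, 1 passed in B6. Without the fold, 42 members passed in A/J, against 60% of all, and 34 in B6, against 51.8%. The median range of a member over time was 0.41 in A/J and 0.32 in B6, and that of all probe sets was 0.49 and 0.41.

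The comparison of the strains asks whether the same genes give different signals in lungs of the same gestational age. Whether the probes match the sequences of both strains equally well was not tested. At E15.5, 2 members were higher in B6 (1.31% of all probe sets) and none was lower by limma (1.14% of all), where 6 were lower at an unadjusted p below 0.05. Other probe sets of the same genes gave lower values in B6 at E15.5 in 2 cases, picked after their values were seen: the second of Rps9 (-0.61, adjusted p = 4.2e-05, and -0.55 at PN0, adjusted p = 3.93e-05, while the first gave 0.05 and 0.08) and the second of Rps14 (-0.41, adjusted p = 0.00843, against -0.14 for the first). At E16.5, 2 were higher (3.26%) and 1, Rps27l, was lower (4.83%). No member passed there without A/J E16.5 replicate 3, B6 E16.5 replicate 2 or B6 E16.5 replicate 3, and 1 passed without A/J E16.5 replicate 2. At E17.5, 3 were higher (4.14%) and 14 lower (6.73%), and a day later 3 were higher (4.08%) and 15 lower (27.7%). At PN0, 8 were higher (6.71%) and 1 lower (13.2%). The median difference of B6 minus A/J over the 60 genes was -0.06, -0.07, -0.15, -0.13 and 0.07 at these times.

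Rps4l and Rpl26 were higher in B6 at all 5 times with the probe set that stands for each gene, least firmly at E16.5. Rps4l (gene on chromosome 6) had signals of 8.18, 8.32 and 8.18 in A/J and 9.06, 9.10 and 9.07 in B6 at E15.5, and of 7.66, 7.47 and 7.31 in A/J and 8.72, 8.66 and 8.92 in B6 at PN0. Strains did not overlap at these times. The Rps4l difference was 0.85 at E15.5 (SE 0.15, adjusted p = 0.000761), 0.52 at E16.5 (adjusted p = 0.0353), 1.0 at E17.5 (adjusted p = 5.53e-05), 1.07 at E18.5 (adjusted p = 9.08e-06) and 1.29 at PN0 (SE 0.15, adjusted p = 3.84e-07), and its second probe set gave 0.53 at E15.5 (adjusted p = 0.00756), 0.14 at E16.5 (adjusted p = 0.451) and 0.77 at PN0 (adjusted p = 1.84e-05). At E16.5 A/J replicates were at 8.86, 8.44 and 7.98, and without replicate 3 the difference was 0.29 (adjusted p = 0.314).

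Rpl26, a large subunit protein on chromosome 11 read by 1 probe set, had signals of 7.78, 7.64 and 7.75 in A/J and 8.37, 8.16 and 8.50 in B6 at E15.5, and of 7.34, 7.50 and 7.21 in A/J and 8.19, 7.99 and 7.98 in B6 at PN0. All B6 litters lay above all A/J litters at both times. The Rpl26 difference was 0.62 at E15.5 (SE 0.12, adjusted p = 0.00159), 0.43 at E16.5 (adjusted p = 0.0234), 0.60 at E17.5 (adjusted p = 0.00116), 0.43 at E18.5 (adjusted p = 0.00669) and 0.70 at PN0 (SE 0.12, adjusted p = 6.75e-05). At E16.5, without A/J replicate 3, the difference was 0.30 (adjusted p = 0.219), and at E18.5 it was 0.32 without A/J replicate 3 (adjusted p = 0.0553) and 0.33 without B6 replicate 1 (adjusted p = 0.0591). Without the replicates high in markers of neighbouring tissues it was 0.64 at E15.5 (adjusted p = 0.0804). At E17.5 it was 0.64 in that setting, where B6 was left with replicate 1 alone. While the signal differed by strain, Rpl26 fell in both, by 0.37 in A/J (SE 0.12, adjusted p = 0.00895) and by 0.29 in B6 (SE 0.12, adjusted p = 0.0423). Whether the strain difference in signal is one of mRNA level was not tested.

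**Figure D4:**
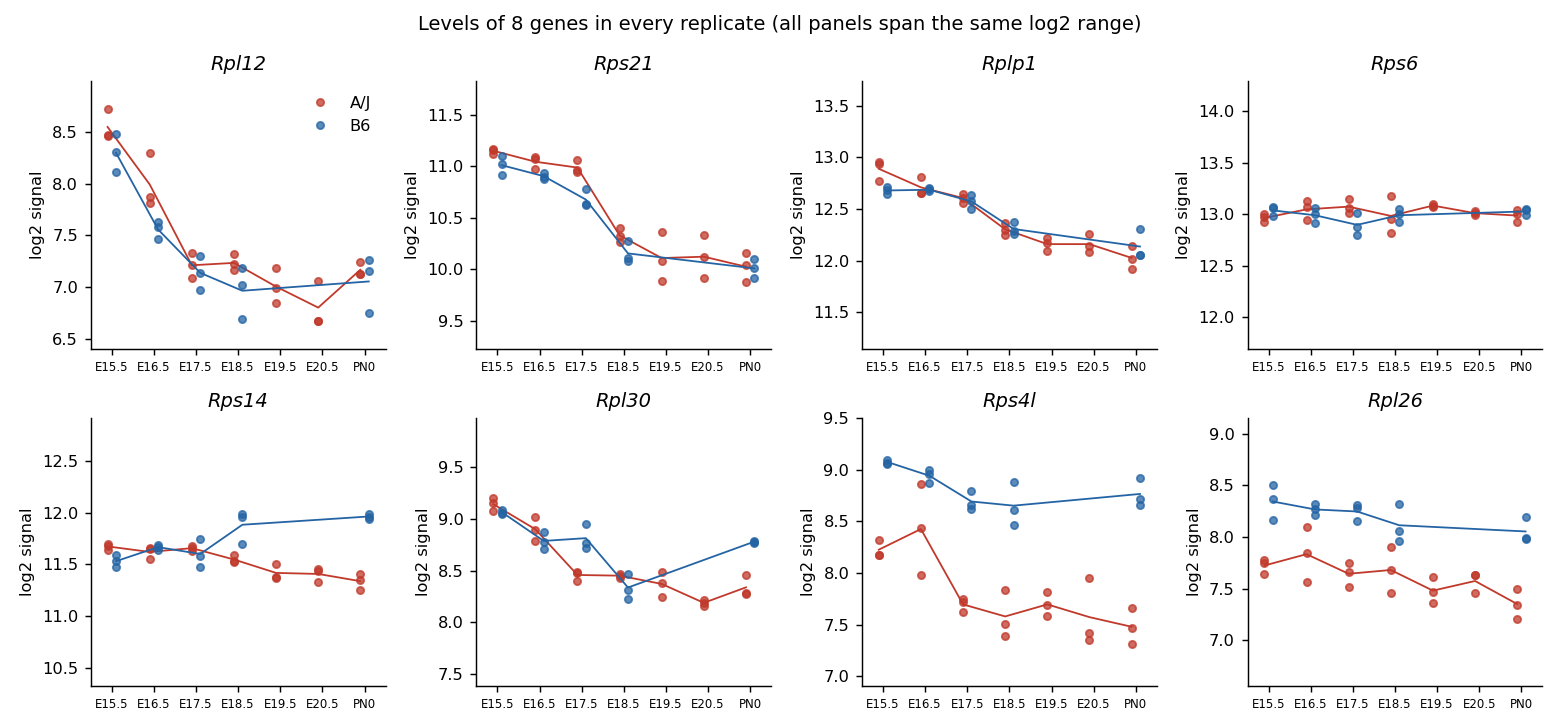
Log2 signals (y axis, same span in each panel) of Rpl12, Rps21, Rplp1, Rps6, Rps14, Rpl30, Rps4l and Rpl26 at each sampled time (x axis, in order), with a point for each replicate and lines through group means, in A/J and B6. Rpl12, Rps21 and Rplp1 fall in both strains and Rps6 stays level, the strains part at E18.5 for Rps14, and B6 lies above A/J for Rps4l and Rpl26.

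The members with the next largest mean strain difference over the 5 times were lower in B6, Rpl14 (-0.24), Rpl7l1 (-0.23), Rpl12 (-0.23) and Rps18 (-0.20). Rps18 passed at E17.5 (-0.27, adjusted p = 0.00422) and E18.5 (-0.32, adjusted p = 0.000286), Rpl14 at E17.5 (-0.45, adjusted p = 0.0434), and Rpl12 at no time. The Rpl14 call was lost in 5 of 6 fits that left out a replicate (adjusted p from 0.0675 to 0.202) and after quantile normalization (adjusted p = 0.0717). Rpl7l1 passed at E18.5 (-0.31, adjusted p = 0.0114) and at PN0 (-0.50, adjusted p = 0.000173), and the call at E18.5 was lost after median centring (-0.22, adjusted p = 0.10), after quantile normalization (-0.20, adjusted p = 0.122) and without A/J E18.5 replicate 2 (adjusted p = 0.0743) or B6 E18.5 replicate 2 (adjusted p = 0.07).

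At E17.5, where the median of all probe sets differed by 0.02, the 14 members that were lower in B6 included Rps27l (-0.39, adjusted p = 0.00422), Rps29 (-0.37, adjusted p = 0.00626) and Rps15 (-0.32, adjusted p = 0.0077). By role they were 7 large subunit genes, 6 small subunit genes and 1 paralog. In 33 of the 60 all B6 litters lay below all A/J litters, against 15.4% of all probe sets. The count rested on small differences: 14 lower became 28 when each array was centred on its median and 4 after quantile normalization, with 3 higher under both. Shares of all probe sets under either setting are not given here. The full fit called 17 members, against 6 without A/J E17.5 replicate 2 or without B6 E17.5 replicate 2, 8 without A/J replicate 1 and 11 without B6 replicate 1. The 9 replicates that were high in markers of neighbouring tissues include replicates 2 and 3 of B6 E17.5. Without them this group rests on replicate 1 alone, so no count is given for that setting.

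At E18.5 the median of all probe sets also differed, by -0.13, as that of the members did. Centring of each array moved both medians to -0.04 and left 2 members lower and 5 higher, and quantile normalization left 6 lower and 4 higher. For these recounts, too, shares of all probe sets are not given. At that time 16 of 22 cell cycle genes were lower in B6 (median -0.57, range -0.86 to -0.14), as were 5 of 8 esophagus markers (median -1.18, range -2.57 to -0.13), and their part in the difference was not tested. Because B6 pups are born earlier, B6 lungs at E18.5 were also set against A/J lungs at E19.5. In this comparison 3 members were higher in B6, against 4.78% of all probe sets, namely Rps4l (0.96, adjusted p = 7.8e-05), Rpl26 (0.63, adjusted p = 0.000556) and Rps14 (0.47, adjusted p = 5.18e-05), and 1 was lower, against 5.15%, Rpl7 (-0.25, adjusted p = 0.0295). Here 19 of 22 cell cycle genes were higher in B6 (median 0.62, range 0.14 to 1.15), and their part was not tested.

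At PN0 the members that were higher in B6 were Rps4l, Rpl26, Rps14 (0.63, adjusted p = 2.28e-07), Rpl30 (0.44, adjusted p = 7.89e-05), Rps13 (0.24, adjusted p = 0.00992), Rpl37a (0.20, adjusted p = 0.0286), Rps4x (0.18, adjusted p = 0.0447) and Rps7 (0.17, adjusted p = 0.0346). The groups were of different age after conception, and age and strain cannot be told apart here. At the same time 12 of 22 cell cycle genes were higher in B6 (median 0.49, range -0.03 to 1.12), 5 of 5 erythroid markers were lower (median -1.41, range -2.13 to -0.65) and 4 of 7 lung markers were lower (median -0.35). Their part in the difference was not tested. Without B6 PN0 replicate 1, 5 members passed, against 9 in the full fit.

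**Figure D5:**
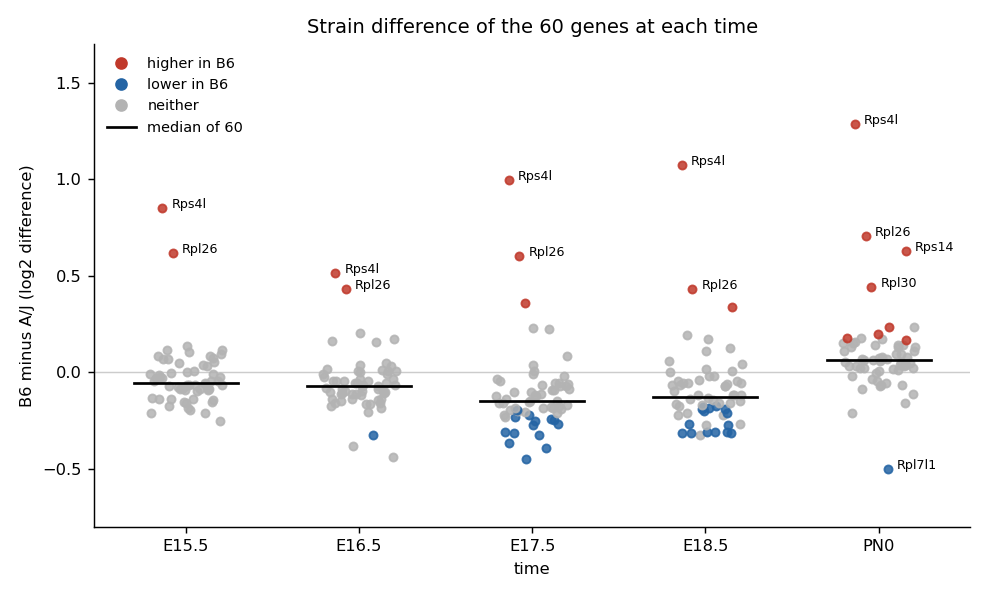
Log2 difference of B6 minus A/J (y axis) for each of the 60 genes at the 5 times sampled in both strains (x axis), coloured by whether it passed at an adjusted p below 0.05, with the median of the 60 as a bar. Rps4l and Rpl26 are the highest points at all 5 times, and the median lies at -0.15 at E17.5 and 0.07 at PN0.

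Whether a change differed between the strains was tested with the interaction term. From E15.5 to PN0, 4 members had a higher change in B6, against 1.98% of all probe sets, and 1 a lower change, against 3.96%. Rps14 differed most, by 0.77 (SE 0.10, adjusted p = 1.97e-05), and was followed by Rpl30 (0.52, SE 0.11, adjusted p = 0.00286), Rpl22 (0.37, SE 0.10, adjusted p = 0.0182) and Rps13 (0.33, SE 0.09, adjusted p = 0.0275), while Rpl7l1 differed by -0.44 (SE 0.13, adjusted p = 0.0386). Rpl30 had signals of 9.20, 9.15 and 9.08 in A/J at E15.5 and 8.28, 8.46 and 8.27 at PN0, and in B6 9.09, 9.06 and 9.05 at E15.5 and 8.78, 8.79 and 8.77 at PN0. In B6 it stood lower at E18.5, at 8.31, 8.22 and 8.47, than at PN0. From E15.5 to E18.5 only Rps14 passed among the members (0.48, SE 0.10, adjusted p = 0.00577), against 0.725% of all probe sets with a higher change in B6 and 5.6% with a lower one, and without A/J E18.5 replicate 2, 2 members passed. In 50 of the 60 genes the change to PN0 was lower in A/J than in B6, and the median of the difference was 0.11. With each of the 12 replicates left out in turn, Rps14 and Rpl30 passed in all 12 fits. Rpl22 was lost in 2 of 12, those without A/J PN0 replicate 1 (adjusted p = 0.0663) or B6 PN0 replicate 3 (adjusted p = 0.0649). Rps13 was lost in 6 of 12, those without A/J E15.5 replicate 1 or 2, A/J PN0 replicate 1, B6 E15.5 replicate 1 or 3, or B6 PN0 replicate 1, and Rpl7l1 in 10 of 12 (adjusted p up to 0.15), all but those without A/J E15.5 replicate 1 or B6 PN0 replicate 1.

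Other genes of the ribosome and of growth moved as follows from E15.5 to PN0, where 25.8% of all probe sets were lower and 25.2% higher in A/J, and 26.6% and 24.4% in B6. Of 77 mitochondrial ribosomal protein genes, whose products build the separate ribosome of mitochondria, 45 were lower and 2 higher in A/J (median -0.31) and 42 lower and 5 higher in B6 (median -0.24), with the largest falls in Mrpl42 (-1.22 in both strains), Mrps27 (-0.97 in A/J and -1.35 in B6) and Mrps25 (-0.92 and -0.97). Of 49 ribosome biogenesis genes, which make and process ribosomal RNA and assemble the subunits, 47 were lower and none higher in A/J (median -0.86) and 45 lower and 1 higher in B6 (median -0.79). Polr1b, a subunit of RNA polymerase I, was lower (-1.83 in A/J and -1.94 in B6), as were the pseudouridine synthase Dkc1 (-1.76 and -2.10) and the snoRNP protein Nop58 (-1.62 and -1.64). The median fall of the cytosolic ribosomal protein genes was smaller than that of these assembly genes, and the gap itself was not tested.

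Of 18 other genes with TOP mRNAs or a role in translation, 13 were lower and 2 higher in A/J (median -0.48) and 9 lower and 5 higher in B6 (median -0.19), the elongation factor subunit Eef1b2 by -1.16 and -0.83, Eef1d by -1.0 and -0.91, and the snoRNA host gene Snhg5 by -0.90 and -0.69. Of 15 genes of the mTOR and Myc pathways upstream of ribosome synthesis, 5 were lower and 5 higher in A/J, against 25.8% and 25.2% of all probe sets. In B6 6 were lower and 7 higher, against 26.6% and 24.4%. Mycn was lower (-2.13 in A/J and -2.29 in B6), as was Myc (-1.37 and -1.55), and Max, the partner of Myc, was higher (0.78 and 1.0). All 22 cell cycle genes were lower in both strains, with medians of -3.0 and -2.55, and led by the mitotic genes Bub1 (-4.51 and -3.72), Kif11 (-4.22 and -3.48) and Top2a (-4.11 and -3.12).

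As a check of tissue and age, all 7 lung markers, among them Sftpb (4.13 in A/J and 4.26 in B6), Sftpc, Ager and Nkx2-1, were higher at PN0 than at E15.5 in both strains, as were 7 of 8 immune markers. Some lungs carried more RNA of marker genes of adjoining organs, since 9 of the 36 replicates had a mean of esophagus, liver or heart markers at least 1 above the lowest replicate of their group, by up to 3.26 for liver in B6 at E15.5. The mean of the 60 ribosomal protein genes in these 9 lay within 0.06 of that of their group. Each of the 9 is itself a part of that group mean, so this distance is no test of the markers. From E15.5 to PN0, 7 of 8 heart markers were higher in each strain (medians 1.20 and 1.15), none of 7 liver markers passed by limma in either strain, and 1 of 8 esophagus markers was higher in each. Of 5 erythroid markers 4 were higher in A/J, and in B6 1 was higher and 1 lower. Without the 9 replicates, 38 members were lower and none higher in A/J, and 27 lower and 2 higher in B6. Shares of all probe sets without these replicates are not given here, so the counts cannot be read against them.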

How the data were processed

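Whole right lung RNA of A/J and B6 litters was measured on 37 Mouse Gene 1.0 ST arrays. The authors deposited log2 signals made with Affymetrix Expression Console 1.1 and RMA, per the submitters' notes, with 35556 probe sets. RMA aligns arrays to each other, so values are relative, and the number of arrays limits the precision. Of the probe sets, 21789 carried 1 gene symbol and were tested, 1621 carried several and 12146 none. The probe set with the highest mean stood for a gene. Arrays 2 and 2b of B6 E18.5 were averaged, which left 36 replicates in 12 groups. Group means were fitted with limma 3.58.1 in R 4.3.3, with Benjamini-Hochberg adjustment over all probe sets, and a gene was called at an adjusted p below 0.05. The scripts were tested on simulated data. Figures were drawn with Python 3.11.15 and matplotlib 3.10.9.

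The members and lists were chosen with earlier results of these data known. Named genes were the paralogs with their partners, the stalk genes and Rpsa, the 6 largest falls and 6 largest rises by the mean of both strains, the 6 largest mean strain differences, members that moved in opposite directions, the 4 with the most different probe sets, and the 3 largest changes of each comparison list. Other genes named, such as Rpl30, Rps13 and Rps29, were picked after their values were seen. Replicate numbers did not pair the groups: 1 of 66 pairs of groups had all correlations of deviations over 0.1, with a median r of -0.0152. Alternatives were median centring, quantile normalization, other filters, other probe set rules, other fits, a fold of 1.5 and leaving out replicates. No batch column was used, and array batches were not analysed here.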

Additional observations from a re-analysis of the deposited data

Results flagged for a closer look

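For 5 members the change over time differed between the strains by limma's interaction term. Rps14 fell in A/J and rose in B6, and the change to PN0 differed by 0.77 (SE 0.10, adjusted p = 1.97e-05) and that to E18.5 by 0.48 (SE 0.10, adjusted p = 0.00577). In the change to PN0 Rpl30 differed by 0.52 (SE 0.11, adjusted p = 0.00286), Rpl22 by 0.37 (SE 0.10, adjusted p = 0.0182), Rps13 by 0.33 (SE 0.09, adjusted p = 0.0275) and Rpl7l1 by -0.44 (SE 0.13, adjusted p = 0.0386). With each of 12 replicates left out in turn, Rps14 and Rpl30 passed in all 12 fits, Rpl22 was lost in 2, Rps13 in 6 and Rpl7l1 in 10, and without array 2b neither Rps13 (adjusted p = 0.0601) nor Rpl7l1 (adjusted p = 0.0505) passed. The PN0 groups differ in age after conception, and the part of age, strain and the markers that differ at PN0 was not tested.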

How the results depend on the processing

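The calls below are members past the threshold in either direction, and the cause of each shift was not tested. Shares of all probe sets under these settings are not given in this section. With a fold of 1.5 required, the 43 calls from E15.5 to PN0 in A/J became 15 and the 35 in B6 became 10, the strain calls at E16.5 fell from 3 to 0, at E17.5 from 17 to 2, at E18.5 from 18 to 1 and at PN0 from 9 to 3, the 4 of B6 E18.5 against A/J E19.5 became 2, the interaction calls to PN0 and E18.5 (5 and 1) became 1 and 0, and the 73 calls over the steps became 4. Centring each array gave 31 calls at E17.5, 7 at E18.5 and 5 by the F test in A/J, and quantile normalization 7, 10 and, by the F test in B6, 1. A fit to only the groups compared gave 5 at E17.5, 1 at E18.5, 5 at PN0, 2 and 0 for the interactions and 29 for the steps. An intensity trend with a robust prior gave 14 at PN0. The probe set with the lowest mean gave 4 at E15.5, 7 at E16.5 and 8 for B6 E18.5 against A/J E19.5. Leaving out array 2b gave 3 for the interaction to PN0. The F test with no fold gave 42 in A/J and 34 in B6. Leaving out the 9 replicates high in markers, chosen after seeing the data, gave 1, 0, 1 and 5 at E15.5, E16.5, E17.5 and PN0, 2 for the interaction to PN0 and 37 for the steps.

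Directions reversed in 4 cases. The median interaction to E18.5 was 0.02 after centring, against -0.08. Rpl7 in A/J was 0.015 after quantile normalization, Rps6 in B6 was 0.18 (adjusted p = 0.0463) after it, and Rps6 in A/J was -0.17 (adjusted p = 0.049) with its lowest probe set.

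With each replicate left out, calls ranged from 39 to 43 in A/J and 29 to 34 in B6, 2 to 2 at E15.5, 0 to 3 at E16.5, 6 to 18 at E17.5, 14 to 15 at E18.5, 5 to 11 at PN0, 3 to 4 for B6 E18.5 against A/J E19.5, 2 to 5 and 1 to 2 for the interactions, 64 to 81 for the steps, and 2 to 3 and 1 to 3 for the F tests in A/J and B6. With the replicate number as a block, though the numbers do not pair the litters, calls were 43 in A/J, 35 in B6, 4, 16, 17 and 8 between the strains from E16.5 to PN0, 4 for B6 E18.5 against A/J E19.5, 5 and 1 for the interactions and 67 for the steps.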
